A study of Homo sapiens with 6 samples.

Results

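Cadherins and protocadherins were compared between 3 libraries of C4-2B and 3 libraries of its CBZ-resistant subclone RC4-2B. C4-2B is a human castration resistant prostate cancer cell line, and RC4-2B was derived from it by repeated exposure to cabazitaxel (CBZ), a taxane that stabilises microtubules, at concentrations raised from 0.1 to 20 nM over 4 months. Both lines were grown for 72 h in medium with 10% FBS before RNA isolation by the labels, while the methods of the study name both FBS and CSS (charcoal-stripped serum, low in androgens) for these cultures, so the serum is not certain. No library was labelled as drug-treated at harvest. RC4-2B is 1 subclone, so resistance and clonal differences cannot be told apart here. The labels call the 3 libraries of each line biological replicates and do not say how the cultures were separated, so p-values measure the spread between these libraries.

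The genes were all autosomal protein-coding entries of the count table with a numbered CDH or PCDH symbol. This gave 86 genes of 58735 in the table, and of 19019 that were autosomal and protein-coding. The 86 comprised 23 CDH genes, 10 PCDH genes outside the arrays, and 53 clustered protocadherin genes, of which 15 were PCDHA, 16 PCDHB and 22 PCDHG. The CDH and the lone PCDH genes are called non-clustered, 33 in all.

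Cadherins are transmembrane proteins whose extracellular repeats bind calcium and join neighbouring cells. Classical cadherins, such as E-cadherin (CDH1) and P-cadherin (CDH3), hold epithelial cells together at adherens junctions, where their tails bind catenins that connect to actin. E-cadherin is the main classical cadherin of prostate luminal epithelium, P-cadherin marks basal epithelium, and N-cadherin (CDH2) is typical of nerve and mesenchyme. Protocadherins have other cytoplasmic tails. The clustered ones lie in 3 neighbouring arrays on chromosome 5 (A, B and G), in which each variable first exon has its own promoter, and in the A and G arrays that exon is spliced to exons shared by the whole array. They are best known for giving neurons distinct surface identities.

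Many promoters of the clustered genes carry a conserved element with CGCT at its core. In RefSeq promoter windows of the 250 bases before each transcript start (GRCh38.p14), 67 of the 86 genes were matched, 47 clustered and 20 non-clustered. The longer motif CGCTGT, chosen after these windows had been inspected and searched on both strands, was present in 25 of 47 clustered windows (53.2%), in 1 of 20 non-clustered windows (5.0%) and in 8.83% of all 35116 windows. By array it was found in 17 of 20 PCDHG windows (85.0%), 7 of 13 PCDHA windows (53.8%) and 1 of 14 PCDHB windows (7.14%). The bare CGCT, which lies within it, did not separate the classes, at 95.7% of clustered, 95% of non-clustered and 64.8% of all windows. The following stretches show the 5 PCDHG genes described later, and 1 PCDHA and 1 PCDHB gene for comparison, with CGCTGT in capitals. All are on the + strand.
PCDHGA4, chr5:141354959-141354998: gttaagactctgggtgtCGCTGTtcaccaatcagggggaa
PCDHGB2, chr5:141359920-141359959: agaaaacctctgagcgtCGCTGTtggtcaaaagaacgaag
PCDHGA8, chr5:141392567-141392606: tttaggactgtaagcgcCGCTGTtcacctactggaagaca
PCDHGA10, chr5:141412930-141412969: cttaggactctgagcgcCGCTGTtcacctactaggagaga
PCDHGC3, chr5:141475879-141475918: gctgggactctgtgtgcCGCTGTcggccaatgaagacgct
PCDHA10, chr5:140855840-140855879: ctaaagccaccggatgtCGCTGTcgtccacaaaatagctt
PCDHB3, chr5:141100392-141100431: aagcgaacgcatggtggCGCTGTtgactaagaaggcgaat
On the gene's own strand the motif began between 38 and 199 bases before the start, with a median of 52, in 24 clustered windows. These distances are from the RefSeq start. Among the genes shown, that is the start in the count table for PCDHGA10 and PCDHB3, but not for PCDHGA4, PCDHGB2, PCDHGA8, PCDHGC3 or PCDHA10. A match is a description of these letters and not evidence of binding.

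The libraries held between 15707134 and 18052517 gene counts. Levels are given as CPM, gene counts relative to the library total, scaled by TMM, edgeR's correction for library composition, and 3 counts were worth 0.170 to 0.188 CPM. Between genes, levels are compared as deposited FPKM, which divides by gene length. RC4-2B replicate 2 stood apart from the other RC4-2B libraries, with a chi-square per gene of 39.9 and 31.0 against replicates 1 and 3, whereas replicates 1 and 3 gave 9 and the C4-2B pairs 2.56 to 5.22. The luminal markers chosen for the tissue check were all tested, and 2 of 10, KLK3 and TMPRSS2, were lower in RC4-2B (KLK3 974 to 48.4 CPM and TMPRSS2 184 to 87.2 CPM). Their summed level was 4050 to 4270 CPM in C4-2B and 2980 to 3240 CPM in RC4-2B. Summed basal markers were at 0.239 to 0.968 and 0.285 to 0.5 CPM, with KRT5 and TP63 at 0 in every library, and leukocyte markers reached at most 0.226 CPM. Summed fibroblast markers were 21.2 to 25.2 CPM in C4-2B and 22.2 to 36.6 CPM in RC4-2B, all from COL1A1 apart from traces, since COL1A2, DCN and LUM were at 0. Summed endothelial markers were 7.47 to 8.14 and 3.64 to 5.07 CPM. Only 1 of these 3 genes was tested, and the other 2 were at or under 3 counts in every library. Neuroendocrine markers were 8.60 to 10.1 and 6.95 to 10.3 CPM, and Schwann cell and neuron markers at most 0.764 CPM. Their part in the differences below was not tested.

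Most of the family was silent or close to it at this depth. Of the 86 genes, 42 never exceeded 3 counts in any of the 6 libraries, 27 clustered and 15 non-clustered. The same held for 27.4% of all autosomal protein-coding genes. Another 24 were above 3 counts in some library but too low to be tested, and 20 passed the low-count filter, 9 clustered and 11 non-clustered, a filter that 63% of autosomal protein-coding genes passed. In C4-2B, CDH1 stood first at 101 ± 3.90 FPKM (SD, n = 3), 19.1 times the next gene, PCDH1, at 5.28 ± 0.254 FPKM. CDH24 (4.27 FPKM), CDH3 (1.76), CDH26 (1.21), PCDH7 (1.15) and PCDHGC3 (1.06) followed, and every other gene had a mean below 1 FPKM. The FPKM of CDH26, PCDH7 and PCDHGC3 in C4-2B did not differ beyond their spread. CDH1 alone made up 85.7% ± 0.142 of all cadherin and protocadherin counts in C4-2B and 90.9% ± 1.75 in RC4-2B (SD, n = 3).

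**Figure D1:**
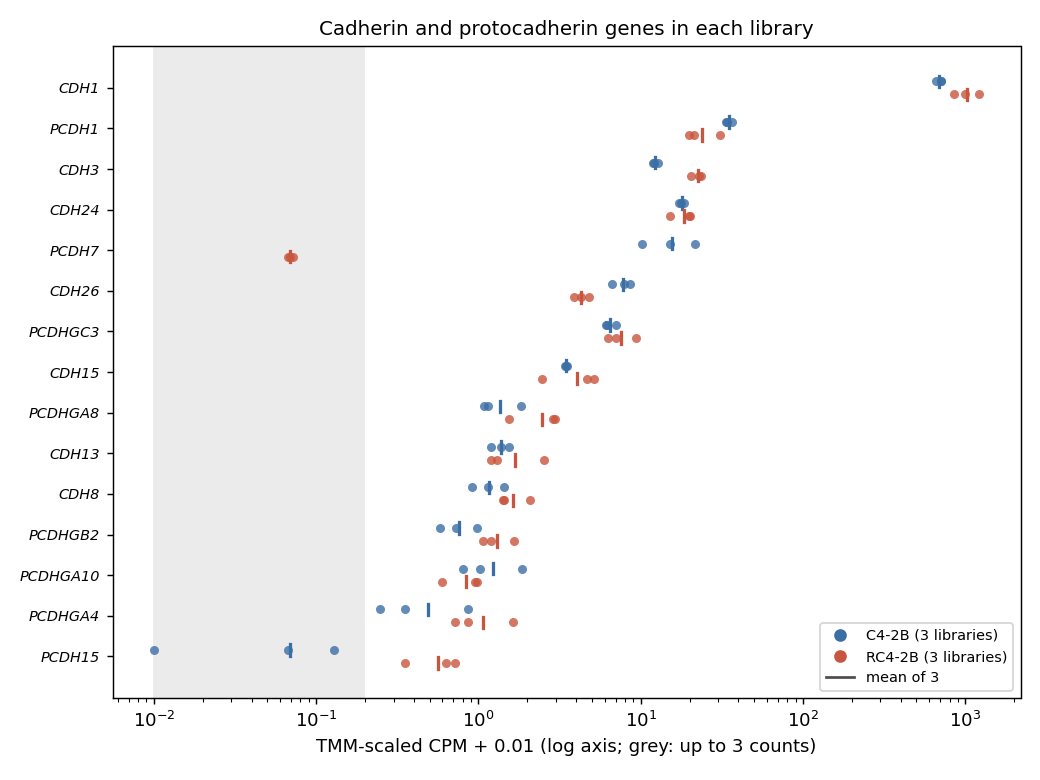
TMM-scaled CPM of 15 genes in every library, on a log axis with 0.01 added, C4-2B in blue and RC4-2B in red, short lines marking the mean of 3 and grey shading levels up to 3 counts. PCDH7 lies between 10.1 and 21.6 CPM in C4-2B and within the shading in all 3 RC4-2B libraries, and CDH1 is far above all other genes in both lines.

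With the adjusted p (quasi-likelihood test of edgeR, Benjamini-Hochberg over 15054 genes) required to be under 0.05, 1 gene of the family was higher in RC4-2B (CDH3) and 1 was lower (PCDH7). This was 10% of the 20 tested, while 1.98% of all tested genes passed, 1.08% higher and 0.903% lower. At an unadjusted p under 0.05, 3 were higher and 3 lower, 6 of 20, while 21.4% of all tested genes were under it. The RC4-2B libraries lay wholly above the C4-2B libraries for 3 genes (CDH3, CDH1 and PCDHGB2) and wholly below for 3 (PCDH7, CDH26 and PCDH1). This was 30% of those tested, against 34.1% of all tested genes, so the share without overlap was near the background. For a single gene the exact two-sided permutation test over libraries cannot go below p = 0.1 with 3 against 3. Libraries without overlap give that value by construction, so it adds nothing for these 6 genes.

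CDH3 and CDH1 are neighbours on chromosome 16, both on the + strand. CDH3 (ENSG00000062038, chr16:68636189-68722616) ends 14608 bases before CDH1 (ENSG00000039068, chr16:68737225-68835548) begins, in GRCh38 as the table gives it. CDH3 measured 12.1, 12.9 and 11.9 CPM in C4-2B, against 20.5, 23.7 and 23 CPM in RC4-2B. All RC4-2B values were higher. The means were 12.3 ± 0.513 and 22.4 ± 1.65 CPM (SD, n = 3). On the log2 scale CDH3 rose by 0.87 (standard error 0.14, 95% interval 0.56 to 1.18, edgeR adjusted p = 0.020). The call was lost without C4-2B replicate 1 (adjusted p = 0.149), 2 (0.12) or 3 (0.130) and without RC4-2B replicate 3 (0.094), and over all 6 omissions the log2 fold change ranged from 0.83 to 0.93. Without these 4 libraries 0.284%, 0.371%, 0.364% and 0.503% of all tested genes passed. CDH3 also missed the threshold in limma on FPKM (adjusted p = 0.051 and 0.055 with the pseudocounts 1 and 0.1). It passed in DESeq2 (adjusted p = 0.0001) and in edgeR with GC correction (0.0031), where 5.93% and 7.62% of all tested genes passed. In edgeR it also passed with no filter on low counts (0.0027), when 4.29% did. Without RC4-2B replicate 1 (0.031) or 2 (0.00057) it passed too, when 3.07% and 12.5% did. In bulk RNA, a change in the number of expressing cells and a change in RNA per cell cannot be told apart.

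CDH1 measured 665, 704 and 711 CPM in C4-2B, against 851, 1219 and 996 CPM in RC4-2B. The highest of the RC4-2B values belonged to replicate 2, the library that stood apart, and the groups did not overlap. The mean was 693 ± 25.2 and 1022 ± 186 CPM (SD, n = 3). The difference of 0.56 on the log2 scale (standard error 0.14, 95% interval 0.25 to 0.87) did not pass in edgeR's test (adjusted p = 0.077). Without that replicate the log2 fold change was 0.41 and passed (adjusted p = 0.0044), when 12.5% of all tested genes passed. With GC correction, in which each library is adjusted for the GC content of genes, it also passed (0.51, adjusted p = 0.034), when 7.62% of all tested genes did. It passed in DESeq2 (adjusted p = 0.026), with no filter on low counts (0.0052) and without RC4-2B replicate 1 (0.038), where 5.93%, 4.29% and 3.07% of all tested genes passed. CDH1 missed the threshold in edgeR's test without C4-2B replicate 1 (adjusted p = 0.34), 2 (0.27) or 3 (0.25) and without RC4-2B replicate 3 (0.17). With any of these left out, 0.284% to 0.503% of all tested genes passed. In limma on FPKM it also missed (adjusted p = 0.14 and 0.15 with the pseudocounts 1 and 0.1). CDH3 made up 1.74% ± 0.0816 of the pair's counts in C4-2B and 2.17% ± 0.237 in RC4-2B (SD, n = 3). The 43 other tested genes within 1 Mb of CDH3 had a median log2 fold change of -0.06, and 0 of them passed the threshold. Without strand information in the sources used here, antisense reads cannot be set apart, and 8.4% of CDH3 exon bases overlap another gene.

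CDH26, a cadherin of epithelia on chromosome 20 (ENSG00000124215), was lower in every RC4-2B library. It measured 6.68, 7.93 and 8.60 CPM in C4-2B, against 4.25, 3.88 and 4.76 CPM in RC4-2B, with no overlap. The log2 fold change was -0.85 (standard error 0.19, 95% interval -1.28 to -0.42) and missed the threshold in edgeR's test (adjusted p = 0.063). It passed with GC correction (adjusted p = 0.015) and in DESeq2 (adjusted p = 0.016), where 7.62% and 5.93% of all tested genes passed. CDH26 also passed with no filter on low counts (0.027) and without RC4-2B replicate 2 (0.016), where 4.29% and 12.5% did. In edgeR's test it missed the threshold without C4-2B replicate 1 (adjusted p = 0.19), 2 (0.26) or 3 (0.24). The same held without RC4-2B replicate 1 (0.069) or 3 (0.14), and in limma on FPKM (0.15 and 0.18).

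The other CDH genes with a mean of at least 1 CPM did not pass. CDH24, a classical-type cadherin on chromosome 14, was at 17.2, 18.5 and 17.8 CPM in C4-2B, against 20.1, 15.1 and 19.8 CPM in RC4-2B, and the difference had an interval of -0.31 to 0.39 on the log2 scale. CDH15, the muscle cadherin, was at 3.46 ± 0.0620 and 4.06 ± 1.42 CPM (SD, n = 3). CDH13, a cadherin anchored by a lipid tail instead of a transmembrane segment, was at 1.37 ± 0.174 and 1.66 ± 0.734 CPM, and CDH8, a type II cadherin of the nervous system, at 1.15 ± 0.259 and 1.63 ± 0.373 CPM. In these 3 genes the libraries of the lines overlapped (edgeR adjusted p = 0.64, 0.64 and 0.37). With GC correction the log2 fold change of CDH24 was 0.50, in place of 0.04, and that of CDH15 was 0.70, in place of 0.23, and neither passed. With GC correction and without RC4-2B replicate 2, CDH15 passed (log2 fold change 0.66, adjusted p = 0.048), when 13.3% of all tested genes did. Of the genes named from here on outside the naming rule, chosen after their values were seen, CDH2 had 0, 2 and 0 counts in C4-2B and 0 in every RC4-2B library. Endothelial CDH5 and mesenchymal CDH11 had at most 1 count in any library. CDH6 was tested at 0.476 and 0.883 CPM and did not pass (adjusted p = 0.32, edgeR).

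**Figure D2:**
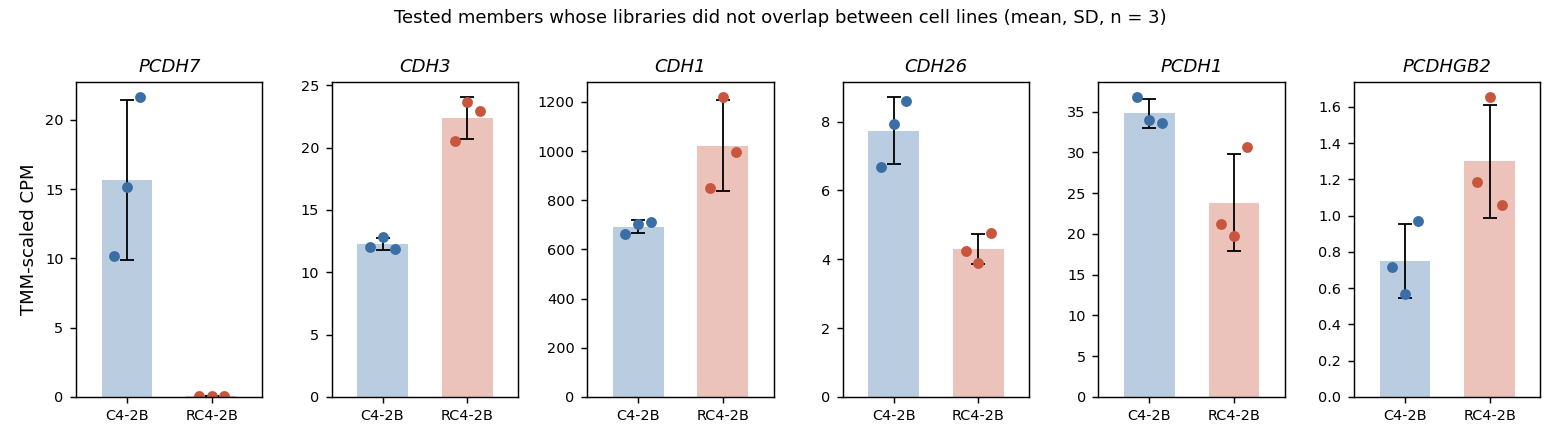
TMM-scaled CPM of the 6 tested genes whose libraries did not overlap, 3 points per line, with bars at the mean and error lines of 1 SD, each panel on its own axis from 0. PCDH7 is close to 0 in RC4-2B, CDH3, CDH1 and PCDHGB2 are higher there, and CDH26 and PCDH1 are lower.

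PCDH7 had the largest difference of the family. The gene (ENSG00000169851, chr4:30720415-31146805, + strand) encodes a delta protocadherin with a long cytoplasmic tail. It had 170, 268 and 380 counts in C4-2B (10.1, 15.2 and 21.6 CPM) and 1 count in each RC4-2B library. The C4-2B libraries themselves spread widely (15.7 ± 5.76 CPM, SD, n = 3), and the lowest was far above the floor. Summed over libraries, 818 counts stood against 3, a ratio of 265.1 after scaling for library size, with an exact interval of 90.4 to 1288 that covers counting error only. PCDH7 passed the edgeR test (adjusted p = 0.000276). With 3 counts credited to each RC4-2B library the ratio was 87.8, and leaving out any library moved it between 71.2 and 103.3. There were 0 other tested genes within 1 Mb of PCDH7, so its neighbourhood gives no comparison, and the 518 tested genes of chromosome 4 had a median log2 fold change of 0.09. Its RefSeq window before the start is shown because this gene carries the largest difference, with CG dinucleotides in capitals:
PCDH7, chr4:30720119-30720368, + strand: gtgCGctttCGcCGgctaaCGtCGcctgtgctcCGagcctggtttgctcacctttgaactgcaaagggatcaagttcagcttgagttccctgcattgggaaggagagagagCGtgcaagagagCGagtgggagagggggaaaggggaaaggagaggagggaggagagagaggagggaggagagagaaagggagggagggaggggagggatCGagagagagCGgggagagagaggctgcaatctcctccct
The window held 10 CG dinucleotides, against a median of 11 over all windows, 7.5 over the non-clustered and 6.0 over the clustered windows. CGCTGT was not in it. DNA methylation was not measured in these samples.

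Of the other lone protocadherins, PCDH1, an epithelial delta protocadherin on chromosome 5 (ENSG00000156453), measured 36.8, 34.0 and 33.6 CPM in C4-2B, against 21.2, 19.7 and 30.6 CPM in RC4-2B. The groups did not overlap, but RC4-2B replicate 3 was close to C4-2B. The log2 fold change was -0.54 (standard error 0.18, 95% interval -0.95 to -0.13, edgeR adjusted p = 0.152), and it was -0.25 with GC correction. PCDH15, a component of the tip links of inner ear hair cells, had 2, 1 and 0 counts in C4-2B, against 10, 6 and 12 counts in RC4-2B. It was removed by the low-count filter, and the ratio of 28 to 3 summed counts was 9.60 after scaling, with an exact counting interval of 2.97 to 49.3. With 3 counts credited to each C4-2B library the ratio was 3.22. PCDH15 was tested and passed with no filter (edgeR adjusted p = 0.030, when 4.29% of all genes passed) and without RC4-2B replicate 2, with or without GC correction. Summed over the 10 genes, the lone protocadherins measured 51.4 ± 4.25 CPM in the parental line and 25.2 ± 6.02 CPM in the subclone (SD, n = 3) with PCDH7 and PCDH1 as the main contributors to the difference, and no test was made of this sum.

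The clustered arrays were led by PCDHG. Summed over genes, PCDHG measured 14.8 ± 1.38 CPM in C4-2B and 18.1 ± 2.35 CPM in the subclone, PCDHB 2.07 ± 0.471 and 1.40 ± 0.723 CPM, and PCDHA 1.16 ± 0.220 and 0.838 ± 0.249 CPM (SD, n = 3). The libraries of the lines overlapped in all 3 sums. No PCDHA gene, 1 PCDHB gene and 8 PCDHG genes were tested. At or under 3 counts in every library were 11 of 15 PCDHA, 12 of 16 PCDHB and 4 of 22 PCDHG genes. The annotated exons of each PCDHA gene overlap other genes of the same strand over 21.4% to 56.6% of their bases and those of each PCDHG gene over 27.5% to 64.4%, so gene-level counts in these arrays are uncertain. Since 13 of 15 PCDHA genes and 6 of 22 PCDHG genes were at 0 in some library, reads in the shared exons cannot have been credited to every gene of an array.

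PCDHGC3, a C-type isoform at the distal end of its array, took the largest share. It measured 7.04, 6.17 and 6.09 CPM in C4-2B, against 6.25, 9.35 and 7.05 CPM in RC4-2B. The libraries overlapped, and the log2 difference had an interval of -0.23 to 0.69 (edgeR adjusted p = 0.49); with GC correction the difference was 0.42 and did not pass. It made up 43.7% ± 5.66 of PCDHG counts in C4-2B and 41.7% ± 6.77 in RC4-2B (SD, n = 3).

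Among the other PCDHG genes, 3 with a mean of at least 1 CPM in some line had a positive log2 fold change and 1 a negative, and none of the 4 passed the edgeR test. PCDHGA8 had 18, 32 and 20 counts in C4-2B, against 46, 52 and 26 in RC4-2B (log2 fold change 0.87, standard error 0.36, adjusted p = 0.21). PCDHGB2 had 12, 10 and 17 counts in C4-2B, against 19, 29 and 18 in RC4-2B (0.79, standard error 0.35, adjusted p = 0.24). The PCDHGB2 libraries did not overlap in CPM, while those of PCDHGA8 did. PCDHGA4 had 4, 15 and 6 counts in C4-2B, against 26, 15 and 12 in RC4-2B (1.13, standard error 0.55, adjusted p = 0.26), and PCDHGA10 had 31, 18 and 14 and then 15, 17 and 10 counts (-0.55, standard error 0.42, adjusted p = 0.43). The 4 genes with these unlike values carry the motif shown above, as PCDHGC3 does. Of the tested genes below 1 CPM, PCDHB2 had 14, 20 and 13 counts in C4-2B, against 5, 9 and 19 in RC4-2B.

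Of the 53 clustered genes, 12 were at 0 throughout 1 line only, 6 in each line, and all 12 were removed by the low-count filter. For 2 of them the mean of the other line was above 3 counts per library. PCDHAC2 had 8, 4 and 3 counts in C4-2B and 0 in each RC4-2B library. With 3 counts credited to each RC4-2B library the ratio was 1.64, and with no filter PCDHAC2 was tested and passed (edgeR adjusted p = 0.047). PCDHGB3 had 0 in each C4-2B library and 4, 10 and 1 counts in RC4-2B. With 3 counts credited to each C4-2B library its ratio was 1.69, though RC4-2B replicate 3 was itself under 3 counts. With no filter it did not pass (edgeR adjusted p = 0.051). Neither ratio carries the error of the counts in the higher line. PCDHA3, the PCDHA gene with the highest count, had 4, 3 and 8 counts and then 9, 5 and 7.

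**Figure D3:**
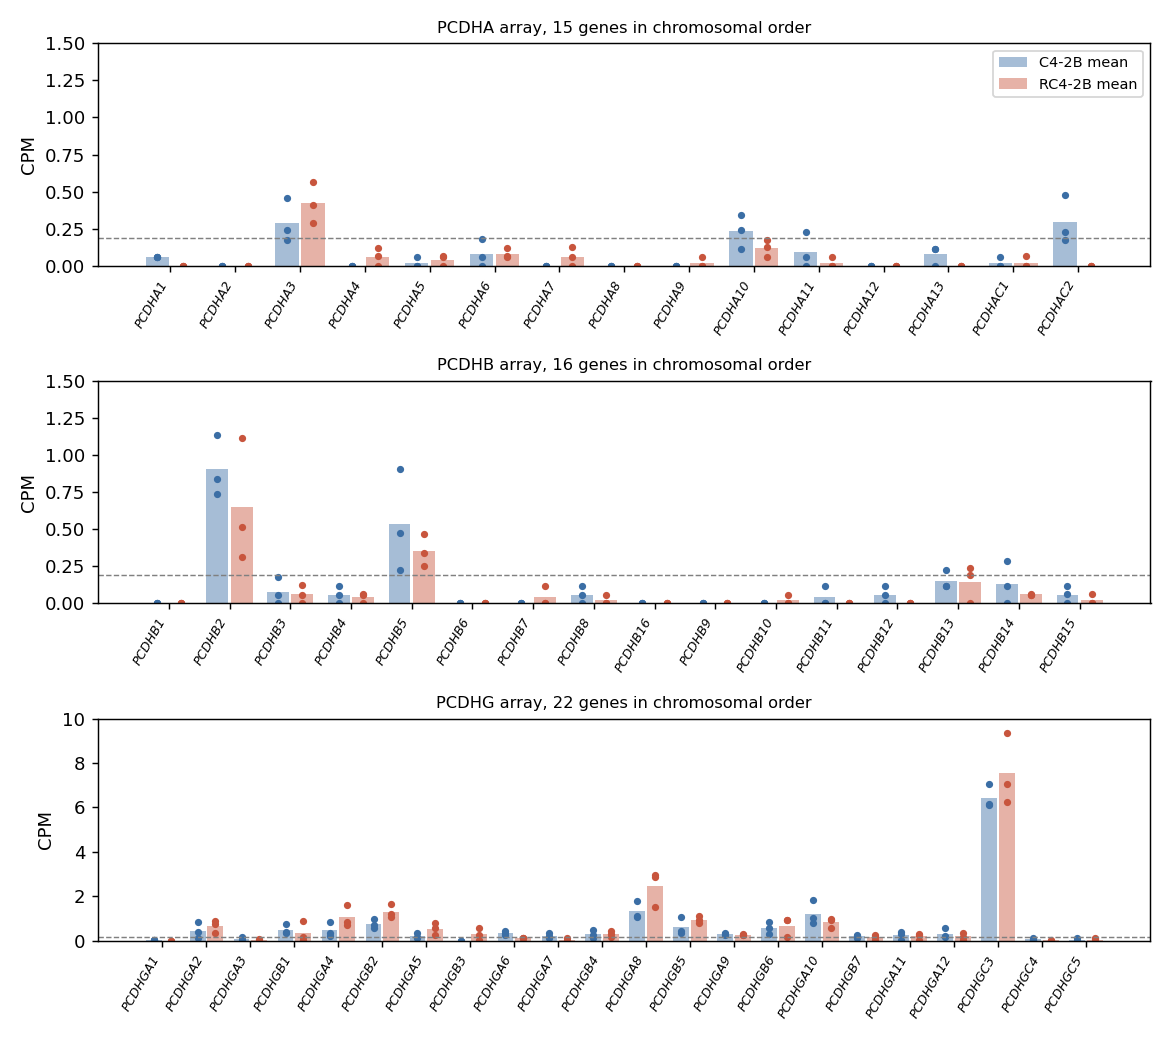
TMM-scaled CPM of the 53 clustered genes in chromosomal order, 1 panel per array, bars at the mean of 3 libraries, points for the libraries, and a dashed line at the highest level that 3 counts are worth; the PCDHG axis is taller. PCDHGC3 stands above all other clustered genes in both lines, and most PCDHA and PCDHB genes lie under the line.

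Clustered and non-clustered genes were then set side by side. The median log2 fold change was 0.58 over the 9 clustered genes tested, 7 positive and 2 negative, and 0.23 over the 11 non-clustered genes tested, 7 positive and 4 negative, beside 0.0063 over all genes tested. The difference between the classes was not tested. By library, the clustered median of log2(CPM + 0.5) relative to the C4-2B mean was -0.20, 0.35 and -0.15 in C4-2B, against 0.45, 0.51 and 0.33 in RC4-2B. Values of RC4-2B replicate 3 and C4-2B replicate 2 crossed, so the lines overlapped. The non-clustered median was -0.05, 0.02 and 0.04 in C4-2B, against 0.17, -0.23 and 0.15 in RC4-2B, with replicate 2 apart from the others. With no filter on low counts the clustered median was -0.33, so its sign rested on which genes were counted. The low-count filter can admit a scarce gene through the line where it is higher. PCDHGA4 and PCDHGB5 reached 10 counts in every RC4-2B library but not in every C4-2B library, and PCDHB2 the reverse. The counts of positive and negative genes are subject to this selection.

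**Figure D4:**
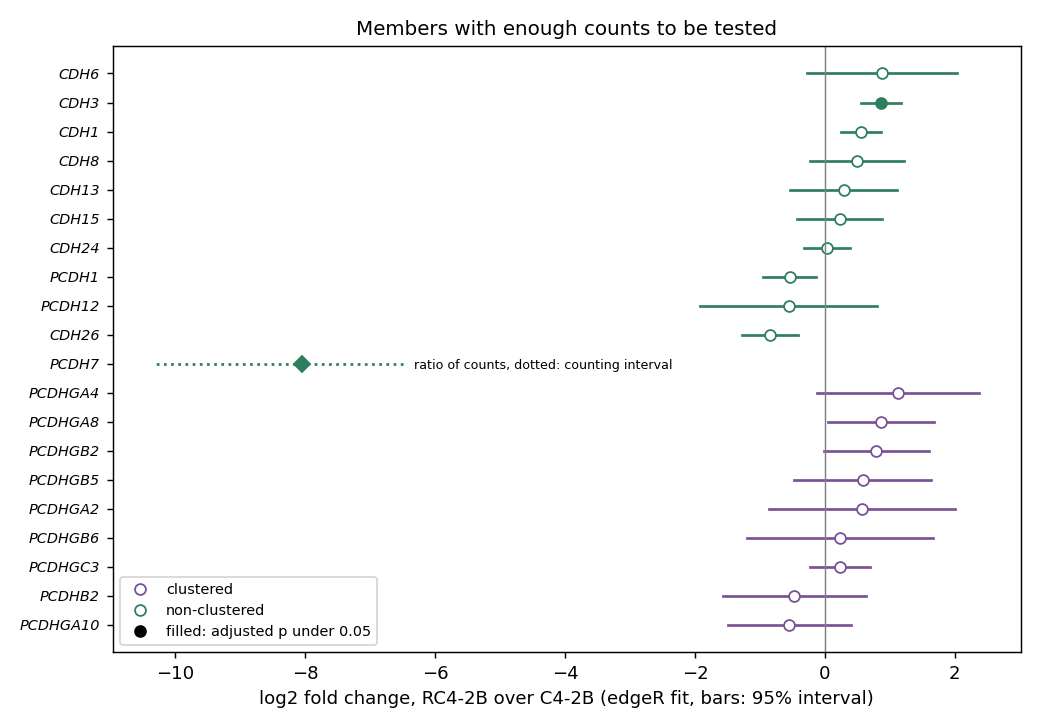
Log2 fold change, RC4-2B over C4-2B, for the 20 tested genes, with 95% intervals from the edgeR fit, clustered genes in purple and non-clustered in green, filled where the adjusted p is under 0.05; PCDH7 is drawn as a diamond at its ratio of counts, with a dotted line for the counting interval. The interval of CDH3 runs from 0.56 to 1.18, and every tested clustered gene except PCDHGA8 has an interval that includes 0.

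Genes that act with cadherins were read from lists of partners. Of the catenins and plakophilins, which tie cadherin tails to actin and keratin, 11 of 13 were tested and 0 passed in either direction (median log2 fold change 0.17). Highest in CPM were JUP, encoding plakoglobin, at 529 ± 1.64 and 597 ± 48.9 CPM, and CTNNA1, encoding alpha-catenin, at 383 ± 14.7 and 432 ± 43.4 CPM (SD, n = 3). In mean FPKM the plakophilin gene PKP3 (67.5 in C4-2B and 53.0 in RC4-2B) was above CTNNA1 (38.9 and 44.7). Of the desmosomal cadherins, 5 of 7 were tested, 1 was higher and 0 were lower (median 0.29). The gene that rose was DSC3, encoding desmocollin-3, at 4.12, 4.30 and 3.70 CPM in C4-2B, against 11.3, 20.0 and 10.5 CPM in RC4-2B. Its increase was 1.78 on the log2 scale (standard error 0.27, edgeR adjusted p = 0.019). RC4-2B replicate 2 was the highest. Without it the log2 fold change was 1.43 and passed (edgeR adjusted p = 8.28e-05), when 12.5% of all tested genes did. DSC3 also passed in DESeq2 (adjusted p = 4.14e-07) and in edgeR with GC correction (0.0016), where 5.93% and 7.62% did. The call was lost without C4-2B replicate 1 (adjusted p = 0.135), 2 (0.0918) or 3 (0.107). DSC3 also missed the threshold in limma on FPKM (adjusted p = 0.098 and 0.087 with the pseudocounts 1 and 0.1). DSG2, the most abundant desmosomal cadherin gene, was at 746 ± 80.8 and 779 ± 147 CPM, and DSC2 at 106 ± 8.30 and 77.6 ± 17.4 CPM (SD, n = 3).

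In the remaining lists 0 genes passed the edgeR test. In DESeq2, NECTIN3 was higher and DCHS1, MAU2 and DNMT3A were lower. With GC correction, CLSTN1 and NECTIN3 were higher and WASF1, MAU2 and DNMT3A were lower. Of the catenin and desmosomal lists, JUP (edgeR adjusted p = 0.042) and DSC3 were then higher and DSC2 (0.0033) was lower. Over all 8 lists, 1 of 71 tested genes passed in the edgeR test (1.41%), 5 in DESeq2 (7.04%), 8 with GC correction (11.3%) and 14 without RC4-2B replicate 2 (19.7%), while the shares of all tested genes were 1.98%, 5.93%, 7.62% and 12.5%. At an unadjusted p under 0.05 in edgeR there were 2 of 5 desmosomal cadherins, 1 of 11 catenins and plakophilins, 4 of 11 other cadherin superfamily genes, 4 of 5 nectins and afadin, 1 of 3 repressors of cadherin genes, 3 of 15 regulators of the protocadherin arrays, 5 of 12 cytoplasmic partners of protocadherins and 1 of 9 sheddases and gamma-secretase subunits, beside 21.4% of all tested genes. Highest in CPM among the other superfamily genes were CLSTN1 (343 and 406 CPM) and FAT1 (114 and 147 CPM). Of the nectin genes, whose products start junctions beside cadherins, NECTIN1 was at 123 and 90.5 CPM, and AFDN, encoding the linker afadin, at 41.0 and 50.6 CPM. SNAI1 and SNAI2, repressors of CDH1, were at 5.40 and 6.40 CPM and at 3.06 and 1.78 CPM, and ZEB2 was at 0 in every library. Of the array regulators, DNMT1, the maintenance DNA methyltransferase, was at 351 and 319 CPM and SMC1A, a cohesin subunit, at 313 and 358 CPM. SET and NCKAP1, which bind protocadherin tails directly or in a complex, were at 788 and 779 CPM and at 175 and 195 CPM, and ADAM15, a protease that cuts cell-surface proteins, and APH1A, a subunit of gamma-secretase, at 367 and 323 CPM and at 156 and 131 CPM.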

How the data were processed

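RNA-seq libraries of 3 C4-2B and 3 RC4-2B cultures were analysed. Alignment by the authors was to GRCh38, using STAR. The counting tool, its strand setting and versions were not given in the sources used here. The authors deposited a table of raw read counts per gene and a table of FPKM values, whose gene length includes exons shared between array members. No molecular identifiers were named, so PCR duplicates could not be set apart, and the 3-count floor covers counting error only.

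Counts were filtered with filterByExpr (minimum count 10), scaled by TMM and tested over 15054 genes with edgeR 4.0.16 (quasi-likelihood test, R 4.3.3), cell line as the only term, p adjusted by Benjamini-Hochberg and called under 0.05. The study used DESeq2, which was run here (1.42.0) as an alternative, as was limma 3.58.1 on log2(FPKM + 1) and log2(FPKM + 0.1). GC correction used a lowess trend on GC content as an offset per library (span 0.2), with GC values for 99.6% of tested genes. A gene at 0 in all libraries of a line was given a ratio with 3 counts credited to each of them, without an interval. A gene with 1 to 3 counts was given a ratio with an exact 95% interval. On simulated data, 180 of 200 genes changed 4-fold were recovered and 15 of 14638 unchanged genes were called. The simulated counts held no library that stood apart and no GC trend, so these shares need not hold for the real libraries.

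Named genes were those past the threshold, those with a mean of at least 1 CPM in either line, and those on the floor in one line with a mean of at least 0.5 CPM in the other. Of each partner list, those past the threshold and otherwise the 2 highest in mean CPM, which is not divided by gene length, were named. The genes, lists and alternatives were chosen with earlier results of these data known. Promoter windows came from RefSeq.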

Additional observations from a re-analysis of the deposited data

How the results depend on the processing

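The count of family genes past the threshold was 1 higher and 1 lower. It was 2 and 2 in DESeq2 (5.93% of all genes passed), 3 and 3 with no filter on low counts (4.29%, with PCDH15 and PCDHAC2 among the calls), 2 and 2 with GC correction (7.62%), 0 and 0 in limma with either pseudocount (0.868% and 0.717%; 6 family genes tested, PCDH7 not among them), and 4 and 2 with GC correction without RC4-2B replicate 2 (13.3%, with CDH15 and PCDH15), an alternative chosen after seeing the data. Leaving out 1 library gave 0 to 3 higher and 1 to 2 lower, with 3 and 2 when RC4-2B replicate 2 was absent (12.5% of all genes passed), 2 and 1 for RC4-2B replicate 1 (3.07%), and 0 and 1 for each of the others (0.284% to 0.503%). PCDH7 passed in every setting in which it was tested. The clustered median of 0.58 became -0.36 in DESeq2 and -0.33 with no filter, where more low genes were counted, 0.13 and 0.22 in limma, where only PCDHGC3 was tested, and 0.30 to 0.88 when a library was left out. The non-clustered median of 0.23 became 0.045 and 0.052 in limma (5 genes) and ran from 0.0013 to 0.26 when a library was left out. CDH24 changed sign without RC4-2B replicate 1 (-0.028) or 3 (-0.021; highest 0.16 without replicate 2), and CDH13 without replicate 2 (-0.14, and -0.19 with GC correction; highest 0.48 without replicate 1); the cause was not tested. Of 252 alternative values of named genes, 227 kept direction and side of the threshold, most of them of genes that did not pass in the main fit. In 7 the call was lost, all of CDH3. In 14 a call was gained, for CDH1, CDH26 or CDH15, and in 4 the sign reversed, for CDH24 or CDH13.

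The replicate block gave 0 higher and 1 lower (0.857% of all genes passed), since CDH3 missed the threshold (adjusted p = 0.057, edgeR), and 2 and 2 together with GC correction. Same-numbered libraries correlated at 0.318, 0.178 and -0.069. C4-2B replicates 1 and 2 correlated best with the RC4-2B library of the same number, and C4-2B replicate 3 with RC4-2B replicate 2 (0.173). With 3 libraries per line, whether the shared numbers pair the samples cannot be settled. Most family genes at a few counts were removed by the low-count filter, so their differences rest on the fit with no filter.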
